A study of Mus musculus with 2 samples.

Results

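Matrix genes were compared between mouse glioblastoma stem cells in which Gli2 was knocked down by an shRNA and cells of the same line given a control shRNA that has no target. The genes described are the collagens other than the Col4a chains of basement membranes, the matrix metalloproteinases (Mmp), the Adamts proteinases and their Adamtsl relatives, the Timp inhibitors and the lysyl oxidases. They were chosen by gene symbol alone, and 94 of the 23784 named genes on the array met that rule, with 155 probes between them. The symbols take in more than interstitial collagens, because transmembrane collagens, the network collagens and the multiplexins Col15a1 and Col18a1 share the Col prefix.

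The cells grew as neurospheres, without serum but with EGF and bFGF, and came from tumours that a Sleeping Beauty transposon had induced in mouse brain. Both groups were stably transduced with lentivirus and differ by the labels in the shRNA alone. Each group holds 1 array, on the same slide, so no difference below has a replicate check, no p-value can be given, and whether the shRNA lines were separate clones or pools is not stated in the labels. Gli2, the targeted gene, had a processed signal of 57.9 on the Gli2 shRNA array and 98.1 on the control array, which after scaling is -1.04 ± 0.22 on the log2 scale, or 2.05-fold lower. This value rests on a single, rather dim probe.

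Collagens are trimers whose chains wind into a triple helix. The fibrillar types build the cables of connective tissue, fibril-associated types coat them, and lysyl oxidases cross-link them. Mmp enzymes cut collagens and other matrix proteins, Adamts enzymes trim procollagens or cleave large proteoglycans, and Timp proteins block the active sites of these enzymes. Normal brain parenchyma is poor in fibrillar collagen, and its matrix is built mainly on hyaluronan and proteoglycans such as brevican and versican, which are cleaved by Adamts1, Adamts4 and Adamts5.

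A level here is the log2 processed signal minus that array's 75th percentile (399 on the Gli2 shRNA array and 329 on the control array), and a difference is the Gli2 shRNA level minus the control level. Signals are printed before this scaling. The value after ± is the error that the scanner software modelled for both spots, which covers the spots and not the cultures. A gene was measured on an array when its probe was well above background, for which the lowest signal was 15.2 on the Gli2 shRNA array and 12.8 on the control array. Where just 1 array measured a gene, the fold is given as a lower bound. If the signal on the other array exceeded that array's lowest signal, the bound is the difference itself and carries its software error.

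Both arrays measured 45 of the 94 genes (47.9%), with 2 more on the Gli2 shRNA array only and 10 on the control array only, and 37 (39.4%) on neither. Among all named genes 61.2% were measured on both arrays and 32.9% on neither. The share seen on the control array alone was 10.6% of the members and 3.91% of all named genes, and the share seen on the Gli2 shRNA array alone 2.13% and 2.0%. Among the 45, Col23a1 and Col20a1 were past 2-fold, both higher, and none was 2-fold lower. Of the 14563 named genes that both arrays measured, 3.63% were past 2-fold, 1.84% higher and 1.79% lower, so 2 of 45 (4.44%) was near the background. The other 43 were within 2-fold.

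Most of the smaller differences lay above 0, though the share depends on the processing and on where the scaling sets 0. Of the 45 genes, 29 (64.4%) lay above 0 and 16 below, with a median of 0.15, where 50.3% of all genes measured on both arrays lay above 0 and their median was 0.00. Median scaling raised members and all other genes alike by 0.14. The shares above 0 were then alike, 68.9% of the members and 68.8% of all genes, but the medians still differed, at 0.28 and 0.14. With normexp 26 members lay above 0 and 19 below (57.8%, beside 47.8% of all genes), with medians of 0.07 and -0.01. By a 1.5-fold rule 9 genes were higher (background 6.0%) and 4 lower (background 6.54%). Counted instead by 2 times the software error, a rule added after the values were seen, 12 were higher (background 9.92%) and 5 lower (background 9.61%), or 17 in all (background 19.5%). The 12 were Col23a1, Col20a1, Col22a1, Col17a1, Col18a1, Col5a1, Adamts4, Adamts1, Adamts10, Adamtsl5, Timp2 and Timp3, and the 5 were Timp4, Col9a3, Col6a3, Col2a1 and Col11a1. Without a filter on dim probes the median of all 94 was -0.06, close to the median of all named genes under that setting (-0.06). Among the 18 members with a signal of at least 200 on both arrays, a limit set after the values were seen, 15 lay above 0, with a median of 0.23, beside 50.6% of the 9949 genes that passed the same limit. The 27 dimmer members split into 14 above 0 and 13 below.

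**Figure D1:**
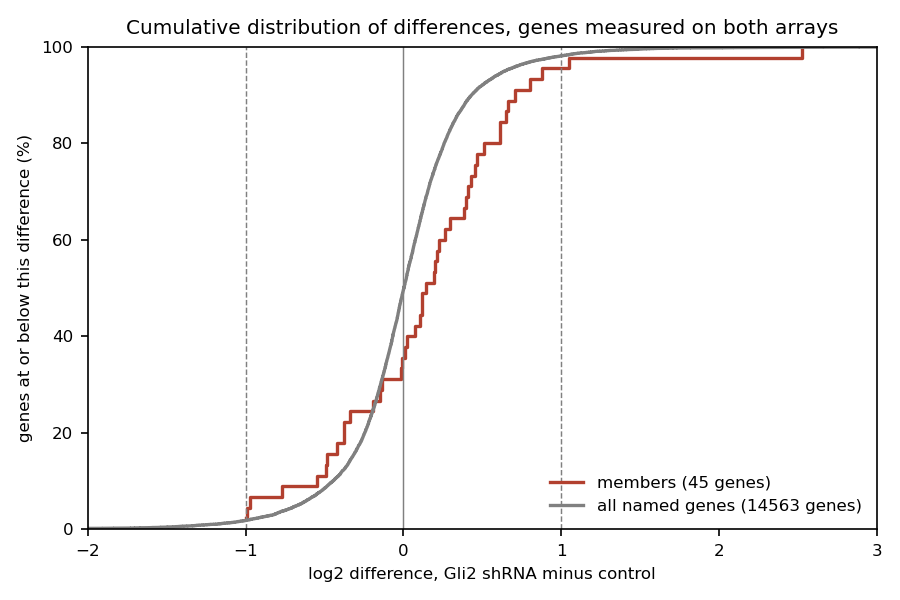
Cumulative share of genes (vertical axis, %) at or below each log2 difference, Gli2 shRNA minus control (horizontal axis), for the 45 matrix genes measured on both arrays and for all 14563 named genes measured on both. Dashed lines mark 2-fold. No matrix gene lies below the lower 2-fold line, past which 1.79% of all genes lie. From just inside that line to about -0.2 the curve of the matrix genes is the upper one, and above 0 it is the lower one, with 29 of 45 genes above 0. The last step, past 2.5, is Col23a1.

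Col23a1, a transmembrane collagen whose outer part can be shed from the cell, showed the highest difference of the 45 genes measured on both arrays. Its brightest probe (RefSeq NM_153393, chromosome 11) gave a signal of 181 on the Gli2 shRNA array and 25.9 on the control array, a difference of 2.53 ± 0.27, or 5.77-fold higher. A second Col23a1 probe, measured on the Gli2 shRNA array only, gave 41.7 and 14.5, or 2.37-fold higher. That bound is the difference itself (1.25 ± 0.40) and carries its software error, and with normexp it was 0.26. The remaining probe was not well above background on either array (12.5 and 13.8). The control signal was thus close to background, and with normexp background correction the difference of the brightest probe was 0.96 and short of 2-fold. Normexp as run here adds an offset of 50 to each signal, which by construction shrinks the ratio between dim signals. A smaller normexp value of a dim gene, here or below, is thus partly set by that offset. Normexp did not only shrink the differences of dim probes: Col19a1, measured on neither array, went from -0.09 to -0.39.

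Col20a1, a collagen of the fibril-associated group, had a signal of 145 on the Gli2 shRNA array and 57.6 on the control array on its only probe (NM_028518, chromosome 2). The difference was 1.05 ± 0.22, or 2.07-fold higher, just past the 2-fold size rule. With normexp it was 0.58, so that no member was past 2-fold higher under that correction. The genes that fell just short of the rule were lower ones: Timp4 at -0.996 ± 0.20 and Col9a3 at -0.99 ± 0.25. With normexp Timp4 was -0.86 and Col9a3 -0.52.

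The bases before the start of Col23a1, Col20a1 and Timp4, the genes at both ends of the range of differences, were taken from the RefSeq promoter table of build GRCm38.p6 (250 bases up to the start, on the strand of the gene). Capitals mark a GC box, the hexamer GGGCGG or its reverse complement, which begins 11 bases before the start of Col23a1. The windows are chr11:51289670-51289919 on the + strand for Col23a1, chr2:180986285-180986534 on the + strand for Col20a1 and chr6:115252206-115252455 on the - strand for Timp4.
Col23a1: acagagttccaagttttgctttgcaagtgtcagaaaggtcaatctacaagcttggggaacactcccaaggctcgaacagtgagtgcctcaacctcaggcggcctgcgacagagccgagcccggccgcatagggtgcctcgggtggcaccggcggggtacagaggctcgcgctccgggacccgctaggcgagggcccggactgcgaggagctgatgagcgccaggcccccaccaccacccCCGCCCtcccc
Col20a1: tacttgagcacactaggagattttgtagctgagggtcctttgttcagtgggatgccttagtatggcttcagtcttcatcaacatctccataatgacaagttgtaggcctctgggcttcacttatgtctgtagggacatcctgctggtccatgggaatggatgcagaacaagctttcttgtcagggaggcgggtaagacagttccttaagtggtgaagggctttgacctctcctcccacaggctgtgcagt
Timp4: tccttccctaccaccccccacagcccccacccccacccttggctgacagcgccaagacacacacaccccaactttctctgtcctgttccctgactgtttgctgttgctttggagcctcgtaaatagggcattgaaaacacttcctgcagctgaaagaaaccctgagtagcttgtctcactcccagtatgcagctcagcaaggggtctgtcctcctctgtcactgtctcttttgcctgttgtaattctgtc

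The G and C content of these windows was 66.0% for Col23a1, 49.2% for Col20a1 and 53.6% for Timp4. The consensus letters bound by GLI proteins, GACCACCCA, were searched on both strands in the 300-base windows (250 before and 50 after the start) of the 67 members in the table, which have 73 windows. None of the 73 held them, and 0.253% of all 32851 windows did. GGGCGG, on either strand, was in 42 of the 73 windows (57.5%, against 35.7% of all windows), and TATAAA in 17 (23.3%, against 13.6%). None of these motifs contains another. A match or its absence describes these windows only.

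**Figure D2:**
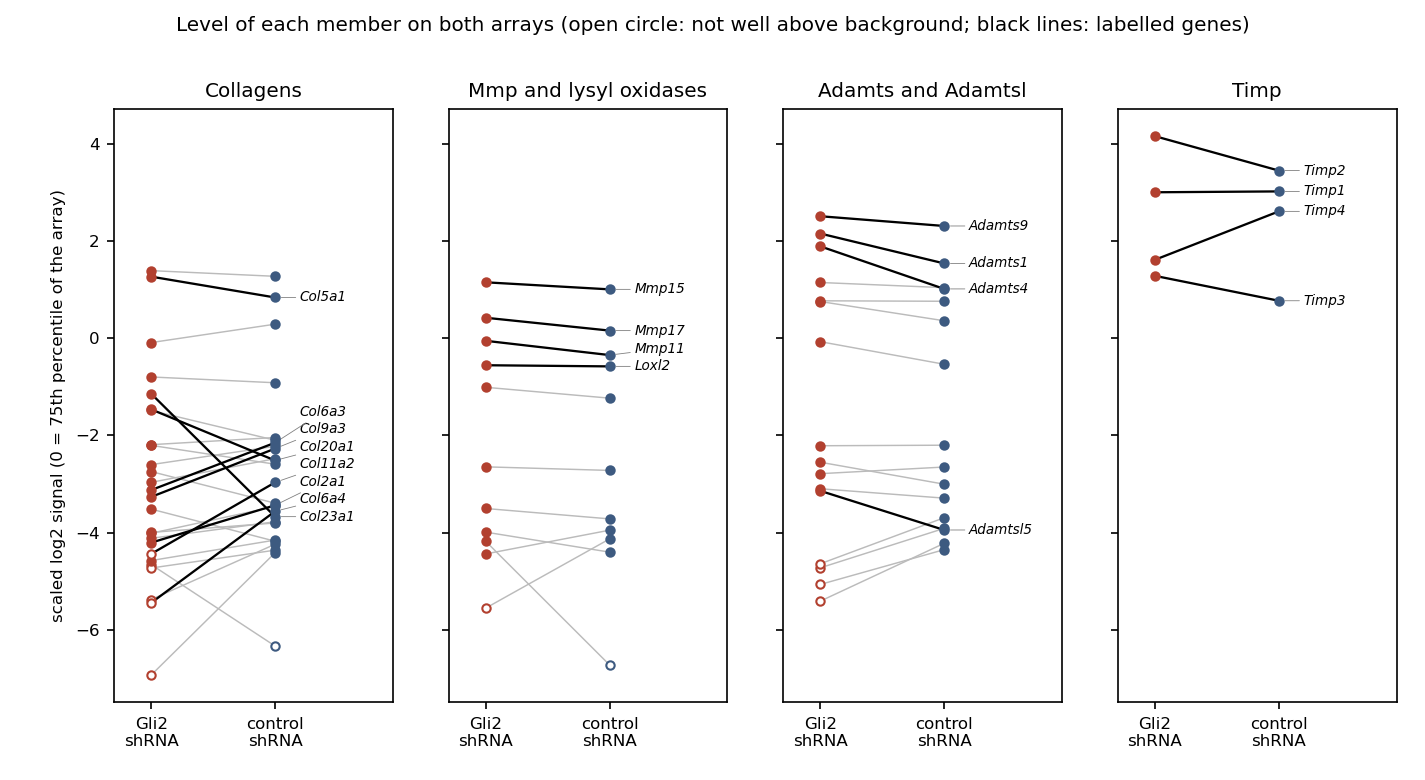
Scaled log2 signal (vertical axis, 0 is the 75th percentile of the array) of each of the 57 matrix genes measured on at least 1 array, with a line joining the Gli2 shRNA array (left) to the control array (right). Open circles were not well above background. Among genes measured on both arrays the line of Col23a1 is the steepest, and that of Timp4 slopes the opposite way to those of Timp2 and Timp3.

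Fibrillar collagens were mostly below 0 or near background. Of the 11 chains, 6 were measured on both arrays, and 5 of these lay below 0 (median -0.38). Col5a1, the chain of type V collagen that helps to start fibrils, went the other way, with a signal of 960 on the Gli2 shRNA array and 588 on the control array (0.43 ± 0.20). Its partner chain Col5a3 had 375 and 402 (-0.38 ± 0.20) and Col27a1, a chain known from cartilage, 65.8 and 70.6 (-0.38 ± 0.22). A dimmer Col5a3 probe, measured on the control array only, gave 11.3 and 26.8, at least 2.14-fold lower. Col5a1 and Col5a3 lay on opposite sides of 0, also with normexp, median scaling, quantile normalization and cyclic loess.

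Col2a1, the main cartilage collagen, had a signal of 21.6 on the Gli2 shRNA array and 30.4 on the control array (-0.77 ± 0.35, and -0.32 with normexp). Col11a1, which joins it in thin fibrils, had 51.1 and 59.1 (-0.49 ± 0.24). Col11a2, its partner chain, was measured on the control array only, with 18.4 and 42.1, at least 2.77-fold lower. That bound is the difference itself (-1.47 ± 0.38) and carries its software error. With normexp it was -0.57, and the second Col11a2 probe was measured on neither array. Of the 10 members seen on the control array alone, Col11a2 and Col6a4 had a bound past 2-fold, where 18.2% of all such genes did. Neither of the 2 members seen on the Gli2 shRNA array alone had one (background 31.1%).

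The chains of types I and III collagen, the bulk of connective tissue, were at the edge of detection. Col1a1 had signals of 15.1 and 16.0 on the Gli2 shRNA and control arrays and Col1a2 25.0 and 23.6, with a difference of -0.19 ± 0.36 for Col1a2 that turned to 0.03 with cyclic loess. Col3a1 was measured on the Gli2 shRNA array only (15.8, against 4.09 in the control), with a lower bound of 1.02-fold. Col5a2, measured on the control array only, gave 3.28 on the Gli2 shRNA array and 15.5 on the control array, with a bound of 1.24-fold lower. Col24a1 was measured on neither array.

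Fibril-associated collagens were mixed. Of 9 genes, 7 were measured on both arrays, 4 above 0 and 3 below, from -0.99 to 1.05. The type IX collagen chains, which decorate cartilage-type fibrils, did not share a direction: Col9a3 had a signal of 41.5 on the Gli2 shRNA array and 68.2 on the control array (-0.99 ± 0.25), Col9a2 had 87.4 and 79.9 (-0.15 ± 0.22), and Col9a1 had 86.6 and 54.6 (0.39 ± 0.23) on its brighter probe. The dimmer Col9a1 probe gave 16.1 and 20.4, a difference of -0.61 ± 0.40, so that Col9a1 has no settled direction. The second Col9a3 probe was measured on neither array (9.38 and 15.4).

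Col16a1, a collagen found near several fibril types, had a signal of 1046 on the Gli2 shRNA array and 796 on the control array (0.12 ± 0.20). Its other probe was measured on the control array only, at 8.48 and 18.8. Col22a1, a collagen of tissue junctions, gave 142 and 76.9 (0.61 ± 0.21, and 0.24 with normexp) on its brighter probe and 44.8 and 51.2 (-0.47 ± 0.24) on its dimmer one, in opposite directions. Col14a1 differed by -0.34 ± 0.33 near background, and Col12a1 was measured on the control array only (9.61 and 17.5, at least 1.39-fold lower). Col19a1 was measured on neither array.

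Network, beaded filament and anchoring collagens were largely below detection, 8 of the 12 being measured on neither array. Among these were Col6a1 and Col6a2, the partner chains that Col6a3 needs to form type VI collagen, at signals under 10 on both arrays. Col6a3 itself had 45.8 on the Gli2 shRNA array and 74.2 on the control array (-0.97 ± 0.24), short of 2-fold, and -0.59 with normexp. Its other probe was measured on neither array. Col6a4 was measured on the control array only, with 9.18 and 27.9, at least 2.23-fold lower. Its difference was -0.51 with normexp. Col7a1, the anchoring fibril collagen of skin, had 230 and 174 (0.12 ± 0.21), and Col26a1 had 24.7 and 29.9 (-0.55 ± 0.30).

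Beside Col23a1, the transmembrane and multiplexin collagens measured on both arrays were dim. Col18a1, whose C-terminal fragment is endostatin, had a signal of 59.6 on the Gli2 shRNA array and 31.3 on the control array (0.65 ± 0.26). Col17a1, a hemidesmosome collagen of epithelia, had 34.9 and 18.2 (0.66 ± 0.32). Col25a1, a transmembrane collagen of neurons, had 16.8 and 18.5 (-0.42 ± 0.41). Both higher differences shrank with normexp, to 0.12 for Col18a1 and 0.09 for Col17a1. Col13a1 and Col15a1 were measured on neither array. Over all 38 collagens, 20 were measured on both arrays, 9 above 0 and 11 below, with a median of -0.17 that ranged from -0.19 with normexp to 0.12 for the 10 collagens with a signal of at least 50, so the collagens as a whole have no settled direction.

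**Figure D3:**
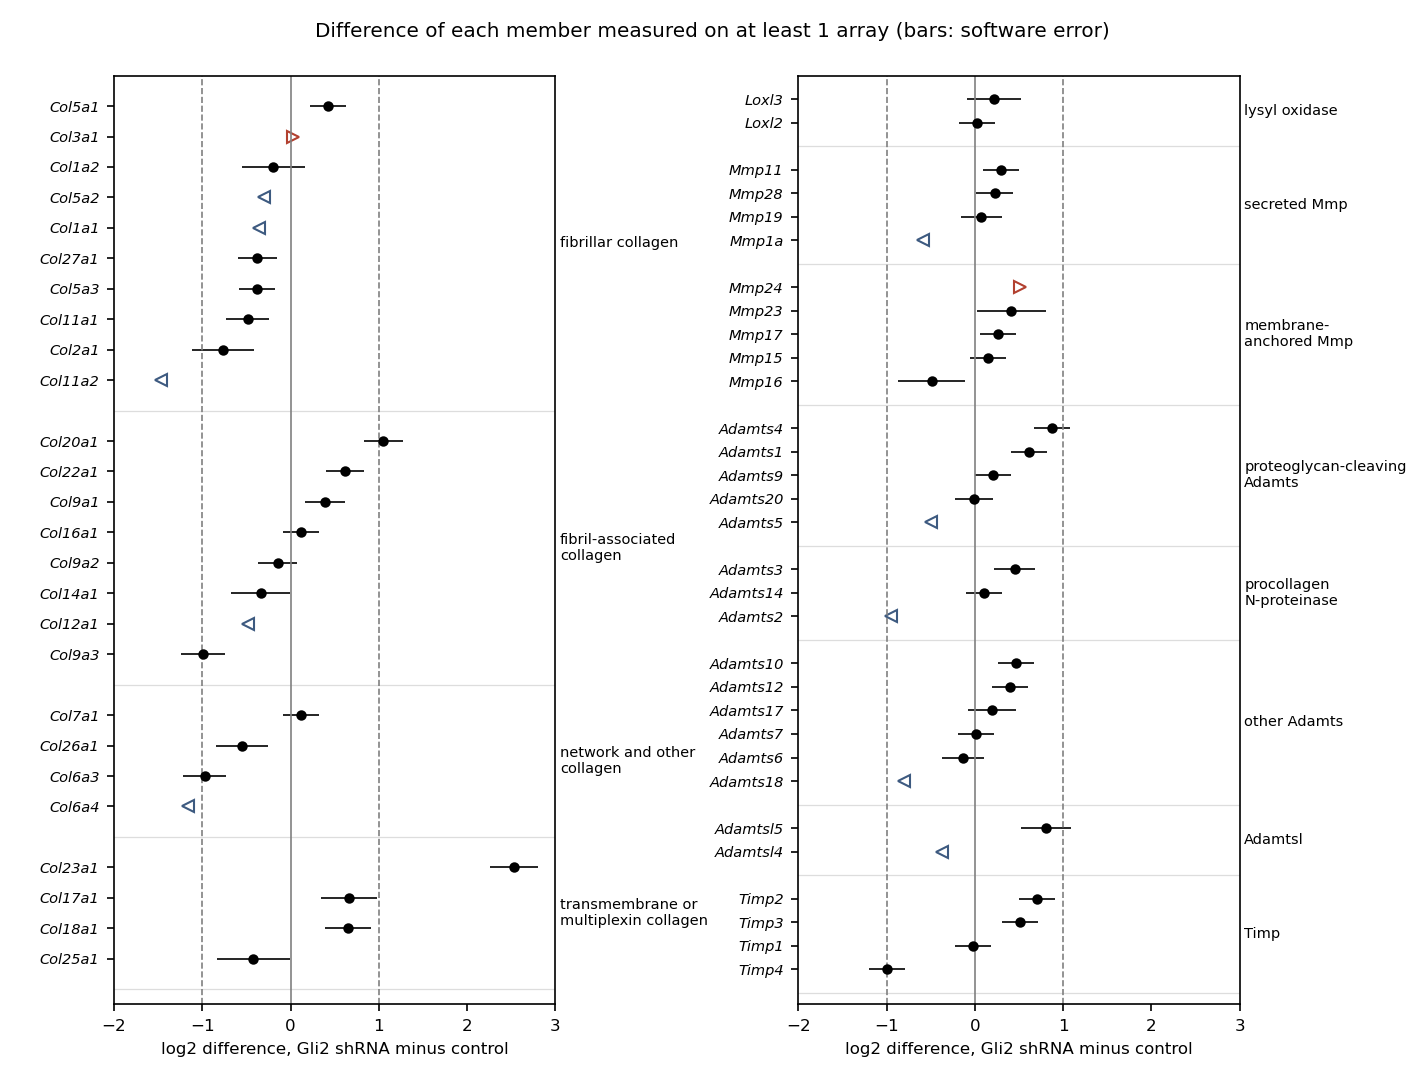
Log2 difference, Gli2 shRNA minus control (horizontal axis), of the 57 matrix genes measured on at least 1 array, by role. Black points with bars are genes measured on both arrays with the software error, and open triangles are lower bounds for genes measured on the control array only (pointing left) or the Gli2 shRNA array only (pointing right). Col23a1 and Col20a1 lie beyond the dashed 2-fold line on the right, and Timp4, Col9a3 and Col6a3 lie just inside the one on the left.

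Lysyl oxidases were represented by Loxl2 and Loxl3. Loxl2, which cross-links collagen and also acts in the nucleus, had a signal of 271 on the Gli2 shRNA array and 220 on the control array (0.02 ± 0.21) on its brighter probe. Its dimmer probe, at 41.3 and 16.4, differed by 1.06 ± 0.37, and by 0.14 with normexp. Loxl3 had 35.2 and 25.1 (0.21 ± 0.30). Lox, Loxl1 and Loxl4 were measured on neither array.

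Of the 23 Mmp genes, 7 were measured on both arrays and 14 on neither, and none of the 7 was past 2-fold. Mmp15, a membrane-type enzyme, had a signal of 885 on the Gli2 shRNA array and 661 on the control array (0.15 ± 0.20). Mmp17, a membrane-type enzyme held by a lipid anchor, had 534 and 367 (0.26 ± 0.20). Mmp16, a further membrane-type enzyme, was near background at 18.4 and 21.3 (-0.49 ± 0.38). Mmp24, a membrane-type enzyme of the nervous system, was measured on the Gli2 shRNA array only, at 22.0 and 3.12, at least 1.42-fold higher. Mmp23, with 25.1 and 15.6, differed by 0.41 ± 0.39, and by -0.03 with normexp.

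Among secreted enzymes, Mmp11, also called stromelysin 3, had a signal of 384 on the Gli2 shRNA array and 259 on the control array (0.29 ± 0.20). Mmp28, also called epilysin, had 198 and 140 (0.22 ± 0.21), and Mmp19 had 63.8 and 49.99 (0.07 ± 0.23). Each was within 2 times its software error. The gelatinases Mmp2 (15.7 and 10.5) and Mmp9 (3.79 and 3.29) and the membrane-type collagenase Mmp14 (3.67 and 5.35), enzymes often studied in glioma invasion, were not well above background on either array. Each rests on 1 or 2 probes, so these values bound the signal of those probes.

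Many of the Mmp genes not measured are neighbours. A run of 10 Mmp genes on chromosome 9, with no other protein-coding gene between them in the annotation, holds Mmp13, Mmp12, Mmp1b, Mmp3, Mmp1a, Mmp10, Mmp8, Mmp27, Mmp20 and Mmp7. 9 of them were measured on neither array, and Mmp1a, a mouse interstitial collagenase, on the control array only, with 8.51 on the Gli2 shRNA array and 18.8 on the control array. The run Col6a6, Col6a5 and Col6a4 on the same chromosome held 2 genes measured on neither array and Col6a4, measured on the control array only.

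Of the 7 Adamts proteinases that cleave proteoglycans, 4 were measured on both arrays, 3 above 0 and 1 below (median 0.41). Adamts4, an aggrecanase that cleaves brevican in brain, had a signal of 1478 on the Gli2 shRNA array and 665 on the control array (0.88 ± 0.20), or 1.83-fold higher. Its 2 other measured probes differed by 0.60 ± 0.26 and 0.21 ± 0.32, in the same direction, though the dimmer of these was -0.09 with normexp. With normexp the difference of the brightest probe was 0.88 as well, and with median scaling, which raised all genes by 0.14, it was 1.01 and past 2-fold. The mean of its probes was 0.56. Adamts1, a versican-cleaving enzyme with antiangiogenic activity, had 1774 and 956 on its single probe (0.61 ± 0.20), or 1.53-fold higher, and 0.51 with normexp.

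The related Adamts9, a proteoglycan-cleaving enzyme, had a signal of 2270 on the Gli2 shRNA array and 1630 on the control array (0.20 ± 0.20). Adamts20, its closest relative, had 86.1 and 71.6 (-0.01 ± 0.22) on its brighter probe, a value that was above 0 with median scaling, quantile normalization and cyclic loess. The dimmer Adamts20 probe, also measured on both arrays, gave 35.4 and 42.2 (-0.53 ± 0.28). Adamts5, the other main aggrecanase, is the chromosome 16 neighbour of Adamts1 and was measured on the control array only, at 9.40 and 17.7, at least 1.41-fold lower. Adamts8 and Adamts15 were measured on neither array.

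The procollagen N-proteinases, which remove the amino-terminal propeptides of fibrillar procollagens, differed by under 1.5-fold on their brightest probes where both arrays measured them. Adamts14 had a signal of 883 on the Gli2 shRNA array and 677 on the control array (0.11 ± 0.20) on its brighter probe and 147 and 73.1 (0.73 ± 0.21) on the other. Adamts3 had 68.1 and 41.1 (0.45 ± 0.23, and 0.09 with normexp). Adamts2 was measured on the control array only, at 16.0 and 25.5, or 1.93-fold lower. That bound is the difference itself (-0.95 ± 0.41).

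Of the remaining Adamts enzymes, Adamts7 and Adamts12, relatives that cleave a cartilage matrix protein, differed by 0.01 ± 0.20 (680 on the Gli2 shRNA array and 557 on the control array) and 0.40 ± 0.20 (673 and 422). Adamts10, which binds fibrillin, had 380 and 227 (0.46 ± 0.21) on its brighter probe and 80.6 and 79.1 (-0.25 ± 0.22) on the other, in opposite directions. Adamts17 (0.19) and Adamts6 (-0.14) lay within their software error, and Adamts18 was measured on the control array only, at least 1.75-fold lower. Adamts13, Adamts16 and Adamts19 were measured on neither array. Over all 19 Adamts genes, 11 were measured on both arrays, with 9 above 0 and a median of 0.20, beside 50.3% of all genes above 0. The median was 0.12 with normexp.

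Adamtsl genes encode relatives without a proteinase domain. Adamtsl5 had a signal of 45.3 on the Gli2 shRNA array and 21.4 on the control array (0.80 ± 0.29), and its second probe, measured on the Gli2 shRNA array only, gave 29.2 and 7.17, at least 1.88-fold higher. With normexp the difference of the first probe was 0.13. Adamtsl4 was measured on the control array only (11.9 and 16.2), and Adamtsl1, Adamtsl2 and Adamtsl3 on neither array.

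The Timp inhibitors were the family with the firmest signals, and its members split. Timp4, an inhibitor found in brain and heart, had a signal of 1220 on the Gli2 shRNA array and 2008 on the control array (-0.996 ± 0.20), or 1.99-fold lower, and a second probe gave 626 and 923 (-0.84 ± 0.20). Timp2, which also takes part in the activation of Mmp2, had 7112 and 3592 (0.71 ± 0.20), and 549 and 340 (0.41 ± 0.20) on its second probe. Timp3, an inhibitor bound to the matrix that also blocks Adamts enzymes, had 971 and 562 (0.51 ± 0.20), and 527 and 299 (0.54 ± 0.20) on its second probe. Timp1 had 3195 and 2669 on its single probe (-0.02 ± 0.20).

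Thus both Timp4 probes were lower and both probes of Timp2 and Timp3 higher, each by over 2 times the software error, while Timp1 was within it. Timp4 was also past 2-fold with quantile normalization (-1.01) and cyclic loess (-1.01), and short of it with normexp (-0.86) and median scaling (-0.86). Timp2 ranged from 0.71 to 0.84 and Timp3 from 0.49 to 0.65 over the scalings and corrections run with the same probe. Of the 11 genes with several probes measured on both arrays, Timp2, Timp3 and Timp4 were those whose probes lay within 0.3 of each other. This limit was set after the values were seen.

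Across the set, 11 genes had several probes measured on both arrays. For 7 the probes went the same way, and for 4 (Adamts10, Adamts6, Col22a1 and Col9a1) they did not. The median gap between the highest and lowest probe of a gene was 0.63, which is about as large as many of the differences given above. Values that rest on 1 probe, such as those of Col20a1, Col5a1, Adamts1 and Mmp15, have no such check.

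**Figure D4:**
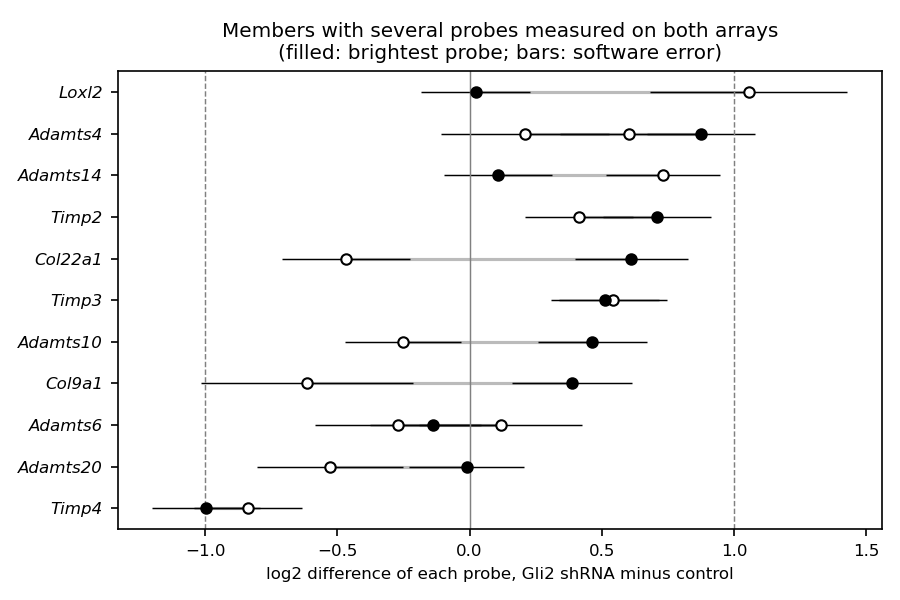
Log2 difference, Gli2 shRNA minus control (horizontal axis), of every probe measured on both arrays, for the 11 matrix genes with more than 1 such probe. Filled points are the brightest probe of a gene and bars the software error. The probes of Timp2, Timp3 and Timp4 lie close together, and those of Col22a1, Col9a1 and Loxl2 lie over 1 log2 unit apart.

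Genes that act with these matrix genes were taken as lists chosen with earlier results of these data known. Among the enzymes and chaperones that fold and modify collagen, of 19 measured on both arrays, 16 lay above 0, beside 50.3% of all genes. None of the 19 was past 2-fold, and the median was 0.29. P4ha2, a subunit of prolyl 4-hydroxylase, differed by 0.97 ± 0.21, P3h2 and P3h3, prolyl 3-hydroxylases, by 0.52 ± 0.21 and 0.50 ± 0.21, while Ppib (-0.04 ± 0.20), P3h1 (-0.03 ± 0.20) and Plod3 (-0.01 ± 0.20) were near 0. P4ha3, also in this list, was measured on the control array only. It had 13.2 on the Gli2 shRNA array and 22.7 on the control array, at least 1.82-fold lower. In the list of procollagen processing and fibril assembly, 3 of 10 lay above 0 (median -0.23). Pcolce2 (0.48 ± 0.20), Bmp1, the procollagen C-proteinase (0.48 ± 0.20), and Sparc (0.32 ± 0.20) were higher than 0, and Emilin1 (-0.79 ± 0.22), Pcolce (-0.55 ± 0.20) and Tll1 (-0.40 ± 0.22) lower.

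In the list drawn up for the plasminogen system, 4 genes were measured on both arrays, 2 above 0 and 2 below (median 0.02). Serpinf1, which encodes the antiangiogenic factor PEDF, was past 2-fold, with 98.1 on the Gli2 shRNA array and 189 on the control array (-1.22 ± 0.21), or 2.33-fold lower. Its place in this list is loose, because PEDF does not inhibit plasmin or its activators. Plau, the urokinase gene, was measured on the control array only. It had 3.5 on the Gli2 shRNA array and 17.1 on the control array, at least 1.365-fold lower. Serpine2 differed by -0.16 ± 0.20, and Plaur (0.67 ± 0.22), the urokinase receptor, and Plat (0.21 ± 0.20) lay above 0. Of 19 other matrix proteinases and regulators, 12 lay above 0, none was past 2-fold and the median was 0.05. There Ctsb, the cathepsin B gene, differed by 0.84 ± 0.20, Adam19 by 0.54 ± 0.20 and Ctsk by 0.39 ± 0.24, against Pcsk5 at -0.72 ± 0.21, Adam10 at -0.55 ± 0.20 and Adam12 at -0.41 ± 0.22.

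In the list of hyalectans, other Adamts substrates and related hyaluronan genes, 6 were measured on both arrays, 2 above 0 (median -0.06). They include Has2 (-0.05 ± 0.35), a hyaluronan synthase and not a substrate. The brain proteoglycans Ncan (0.45 ± 0.20) and Bcan (0.40 ± 0.20) lay above 0 and Vcan (-0.07 ± 0.20), Tnc (-0.30 ± 0.20) and Hapln3 (-0.36 ± 0.21) below it. Reln, the reelin gene, was measured on the Gli2 shRNA array only, with 42.8 and 11.96, at least 2.77-fold higher. Of 8 collagen receptors, 4 lay above 0 and none was past 2-fold (median 0.12). Itgb1 (0.43 ± 0.20), Ddr1 (0.43 ± 0.20) and Itga10 (0.31 ± 0.21) lay above 0, and Gp6 (-0.59 ± 0.32), Ddr2 (-0.36 ± 0.20) and Itga1 (-0.31 ± 0.21) below it.

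Cell type markers were read because collagens and Mmp genes are made mainly by mesenchymal and vascular cells in a tumour. Of 13 markers of glioblastoma stem and neural progenitor cells, 12 were measured on both arrays, 3 above 0 and 9 below (median -0.18), and Cspg4 on neither (summed signals of 257900 on the Gli2 shRNA array and 200500 on the control array). Ptprz1 was past 2-fold, at -1.08 ± 0.20. Of 10 fibroblast and mesenchymal markers, Fbln1 and Prrx1 were measured on both arrays and Twist2 on the Gli2 shRNA array only, while 7, among them Dcn, Lum, Pdgfrb and Postn, were measured on neither. Their summed signals were 2057 on the Gli2 shRNA array and 1859 on the control array. Of 7 pericyte and smooth muscle markers 2 were measured on both arrays (unscaled sums of 8294 and 7856, nearly all from Acta2), of 7 endothelial markers 3 (1057 and 591, mostly Emcn), of 9 microglia and macrophage markers 4 (6327 and 5545, mostly Itgam) and of 5 astrocyte markers 4 (7446 and 7075, mostly Slc1a3). After scaling, all 4 astrocyte markers measured on both arrays lay below 0 (median -0.33), as did all 4 microglia and macrophage markers (median -0.10) and both pericyte markers (median -0.24). Most were small: Aqp4, Slc1a3, Csf1r, Itgam, Cd68, Acta2 and Des lay within their software error. S100b (-0.47 ± 0.21), Aldh1l1 (-0.62 ± 0.21) and Tyrobp (-0.50 ± 0.24) did not. The endothelial markers were spread, with Emcn at 0.74 ± 0.20, Pecam1 at -0.04 ± 0.26 and Kdr at -0.48 ± 0.22 (median -0.04). The fibroblast markers had a median of -0.02, 1 above 0 and 1 below. Cdh5, Tek, Cldn5 and Vwf among endothelial markers and Ptprc, Cx3cr1 and C1qa among microglial ones were measured on neither array. Aif1, P2ry12, Gfap and the smooth muscle marker Myh11 were measured on the control array only. The part of these cell types in the differences above was not tested. In bulk RNA such as this, fewer cells of a type and less RNA per cell cannot be told apart.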

How the data were processed

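Per the labels' protocols, cRNA was labelled with Cy3 alone. Per the file headers, Agilent Feature Extraction 12.1.0.3 quantified the spots of design 074809, and the deposited processed intensity of each spot is background-subtracted. The authors' deposited table holds log2 values that equal the log2 processed intensity minus 1 constant per array (8.64 for Gli2 shRNA, 8.36 for control), and its column medians were -3.69 and -3.55. Their scale and centring were found by this match to the scanner files.

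Control spots and spots marked as outliers were left out (120 on the Gli2 shRNA array and 126 on the control array). None was saturated. Levels were scaled to the 75th percentile of the 56595 probes, with 57.1% (Gli2 shRNA) and 59.5% (control) above background by the software's call. Accessions were matched without versions to RefSeq gene names of GRCm38.p6 (34560 probes with 1 gene), and a gene is represented by its brightest probe. The size rule was 2-fold, and with 1 array per group no test was run. The number of arrays limits the precision. The scaling and the size rule were run on simulated arrays, and no result of that run is given here. It is not taken as a check on dim genes or on bounds for genes measured on 1 array. The matrix genes past 2-fold, Col23a1 and Col20a1, had control signals of 25.9 and 57.6, so their calls have no support from it. Scripts ran in Python 3.11.15 and, for normexp, quantile normalization and cyclic loess, limma 3.58.1. Normexp (offset 50) used the median spot and background intensity of the deposited files, in place of the mean spot intensity first planned, which was not used here.

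Genes named with values are those past 2-fold or with a bound past it, up to 3 per role by control signal, those whose probes disagree by over 0.5, and those nearest to 2-fold. Timp3, Col2a1, Col11a1, the near-background collagens, Mmp2, Mmp9, Mmp14, Adamts5 and other genes given to complete a family were chosen after their values were seen. So was the rule of 2 times the software error. From each related list up to 3 genes in each direction are named. Members and lists were chosen with earlier results of these data known.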

Additional observations from a re-analysis of the deposited data

How the results depend on the processing

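The differences rest on 1 array per group, and depth is limited by signal over background: 27 of the 45 genes measured on both arrays had a signal under 200 on at least 1 array. No paired analysis was possible because each group holds 1 array, and no array could be left out. The median difference of the matrix genes (0.15) was 0.28 with median scaling, which raises all genes alike by 0.14, and -0.0646 without the filter on dim probes, where genes not above background enter. The number of matrix genes 2-fold higher (2) was 0 with normexp, 6 without the filter, 1 with a signal of at least 50 on both arrays, 9 with a 1.5-fold rule and, chosen after seeing the data, 12 by 2 times the software error. With median scaling 3 were 2-fold higher, Adamts4 being added. The number 2-fold lower (0) was 1 with quantile normalization and 1 with cyclic loess (Timp4 in both), 12 without the filter, 4 with the 1.5-fold rule and 5 by 2 times the software error. Over all named genes, 268 were higher and 260 lower, against 67 and 100 with normexp, 769 and 2075 without the filter, and 150 and 147 with the signal limit. With median scaling 384 of all named genes were higher and 176 lower. For the genes named by rule, the direction of each gene past 2-fold held under every alternative that gave it a value. The cause of these shifts was not tested beyond the construction of each setting.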

Other observations

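Several Timp genes lie within the spans of synapsin genes, which encode vesicle proteins of neurons. In the annotation Timp1 lies within Syn1, Timp3 within Syn3 and Timp4 within Syn2. The host genes were looked up after the Timp values were seen. Syn1 had a signal of 475 on the Gli2 shRNA array and 222 on the control array, a difference of 0.82 ± 0.21, beside -0.02 for Timp1. Syn3 had 89.8 and 72.2, a difference of 0.04 ± 0.22, beside 0.51 for Timp3. Syn2 had 117 and 136, a difference of -0.49 ± 0.21, beside -0.996 for Timp4. Host and nested gene lay on the same side of 0 by over 2 times the software error in 1 of these 3 pairs, Timp4 and Syn2, and whether probes of one read RNA of the other was not tested.

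Col12a1, a fibril-associated collagen, had a second probe that was measured on the control array only, at 3.65 on the Gli2 shRNA array and 36.5 on the control array, at least 2.92-fold lower. With normexp its difference was -0.59. The probe that represents Col12a1, which had the higher mean level over both arrays but not on the control array (9.61 and 17.5), gave at least 1.39-fold lower.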
